A study of Mus musculus with 4 samples.

Results

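The 9 genes described here encode proteins stored in neutrophil granules, or released with them, and the 2 subunits of calprotectin: S100a8, S100a9, Lcn2, Padi4, Mpo, Elane, Ngp, Camp and Ltf. They were chosen by gene symbol, as the probe sets of a 1-colour Affymetrix array whose platform annotation names exactly 1 of them. Each of the 9 had 1 such probe set, among 19938 genes named in this way. All 9 passed the filter on dim genes described with the processing, as did 14995 genes in all.

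RNA came from bone marrow cells of C57BL/6J mice cultured for 7 days with a growth factor and then sorted. In the group called GM-CSF M1 (2 arrays), the factor was granulocyte-macrophage colony-stimulating factor, and sorted cells carried CD45, MHC class II and F4/80 but not CD8a. In the group called M-CSF M2 (2 arrays), macrophage colony-stimulating factor came as 20% supernatant of the L929 fibroblast line, and sorted cells carried CD45, F4/80 and CD11b. Factor, supernatant and gate changed together, so their parts cannot be told apart. Whether the replicates of a group were cultured separately or came from different animals is not in the labels. P-values therefore describe the spread of these arrays alone. For the M-CSF pair that spread may be technical. The GM-CSF arrays parted in Xist and a Y-linked gene (values below) as female and male cells do. They were therefore not repeats of 1 RNA sample and came from different animals.

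Neutrophils make their granule proteins in waves as they mature in the marrow. Primary granules form first and carry myeloperoxidase (Mpo) and neutrophil elastase (Elane), while secondary granules form later and carry lactoferrin (Ltf), lipocalin 2 (Lcn2), the cathelicidin precursor (Camp) and neutrophilic granule protein (Ngp). S100a8 and S100a9 are calcium-binding proteins that pair to form calprotectin, which fills the neutrophil cytosol and withholds zinc and manganese from microbes. Padi4 converts arginine to citrulline in histones when neutrophils release chromatin. Monocytes and macrophages also make some of them, among which lipocalin 2 and calprotectin are the best known. Transcription factors of the C/EBP family and PU.1 switch on many granule genes.

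The stretches before the start sites are shown for 5 of the genes. Lcn2 had the largest difference between the groups, and S100a8, S100a9, Ngp and Ltf parted the 2 GM-CSF arrays. Padi4 and Mpo also differed between the groups, and their stretches were searched but are not printed. Each stretch is the 250 bases before the RefSeq gene start (GRCm38.p6), read 5′ to 3′ on the gene's strand. Capitals mark the C/EBP-type motif TTGCNNAA and the PU.1-type motif GAGGAA, each searched on both strands (TTNNGCAA and TTCCTC on the other strand). No match of one overlapped a match of the other. Both motifs were chosen with the expression values known. Lcn2 lies at chr2:32387740-32387989 (minus strand), S100a8 at chr3:90668821-90669070 (plus strand), S100a9 at chr3:90695722-90695971 (minus strand), Ngp at chr9:110419558-110419807 (plus strand) and Ltf at chr9:111019042-111019291 (plus strand).
Lcn2: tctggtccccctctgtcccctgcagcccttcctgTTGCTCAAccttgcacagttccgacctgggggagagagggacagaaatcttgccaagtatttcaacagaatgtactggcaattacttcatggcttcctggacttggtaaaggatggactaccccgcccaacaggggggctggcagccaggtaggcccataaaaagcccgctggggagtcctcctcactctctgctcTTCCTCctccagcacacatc
S100a8: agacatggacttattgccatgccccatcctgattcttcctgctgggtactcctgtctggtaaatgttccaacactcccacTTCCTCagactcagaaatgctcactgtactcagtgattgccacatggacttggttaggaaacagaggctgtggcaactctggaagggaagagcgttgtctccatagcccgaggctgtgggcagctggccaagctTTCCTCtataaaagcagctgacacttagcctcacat
S100a9: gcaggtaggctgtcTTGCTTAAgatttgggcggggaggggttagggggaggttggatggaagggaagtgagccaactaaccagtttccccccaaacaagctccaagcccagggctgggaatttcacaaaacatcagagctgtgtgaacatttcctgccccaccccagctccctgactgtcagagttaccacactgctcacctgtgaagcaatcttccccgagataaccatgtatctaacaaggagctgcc
Ngp: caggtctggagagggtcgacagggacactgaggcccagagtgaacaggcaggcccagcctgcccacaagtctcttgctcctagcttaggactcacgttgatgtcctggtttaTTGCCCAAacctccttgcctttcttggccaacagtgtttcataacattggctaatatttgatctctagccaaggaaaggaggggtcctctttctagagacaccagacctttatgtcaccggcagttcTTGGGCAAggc
Ltf: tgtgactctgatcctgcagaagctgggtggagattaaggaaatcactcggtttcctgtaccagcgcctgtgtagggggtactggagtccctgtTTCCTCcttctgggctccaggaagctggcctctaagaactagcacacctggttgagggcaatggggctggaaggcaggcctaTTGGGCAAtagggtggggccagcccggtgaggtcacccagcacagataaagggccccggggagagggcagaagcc

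The C/EBP-type motif was present in 4 of the 9 stretches, against 9.56% of the 32851 RefSeq stretches of the same length. They belong to Lcn2, S100a9, Ngp and Ltf, and Ngp had 2 matches, beginning 138 and 11 bases before its start. The PU.1-type motif was present in 5 of the 9 stretches, against 23.3% of all. S100a8 and Mpo had 2 matches each, and Lcn2, Elane and Ltf had 1 each. Padi4 and Camp had neither. Ngp, Camp and Ltf lie on chromosome 9, and S100a8 and S100a9 on chromosome 3. A match is a description of these letters and not evidence of binding.

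The GM-CSF arrays were further apart from each other than the M-CSF arrays. Replicate 1 minus replicate 2 had an SD across genes of 0.325 (log2) in the GM-CSF pair and 0.18 in the M-CSF pair. GM-CSF replicate 1 also stood apart in Xist, an RNA that silences the X chromosome, at 11.58 against 4.53 to 4.93 on the other 3 arrays, and in the Y-linked Eif2s3y, at 3.66 against 9.10 to 9.32. That is the pattern of female cells on GM-CSF replicate 1 and of male cells on the other 3 arrays. Background was taken from olfactory receptor genes, most of which are silent outside olfactory tissue: their 95th percentile lay between 5.80 and 6.06 on the 4 arrays. In both groups, all 10 macrophage markers examined lay above background on every array. Adgre1, which encodes F4/80, read 12.32 and 12.61 in GM-CSF cells, against 12.73 and 12.79 in M-CSF cells. Of these 10, C1qc, a chain of complement C1q, was lower in GM-CSF cells (-1.11, limma adjusted p = 0.0389) and 9 did not pass, among them C1qa (-1.11, limma adjusted p = 0.105) and C1qb (-0.62, limma adjusted p = 0.0696). The C1qc call was lost without either M-CSF array and with trended and robust variances. Macrophage markers also differed within the GM-CSF pair, in both directions. Mrc1 was 3.63-fold higher in replicate 1, and C1qa was 2.16-fold higher in replicate 2. Of the 10 markers, 4 were higher in GM-CSF replicate 1 and 6 were lower.

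**Figure D1:**
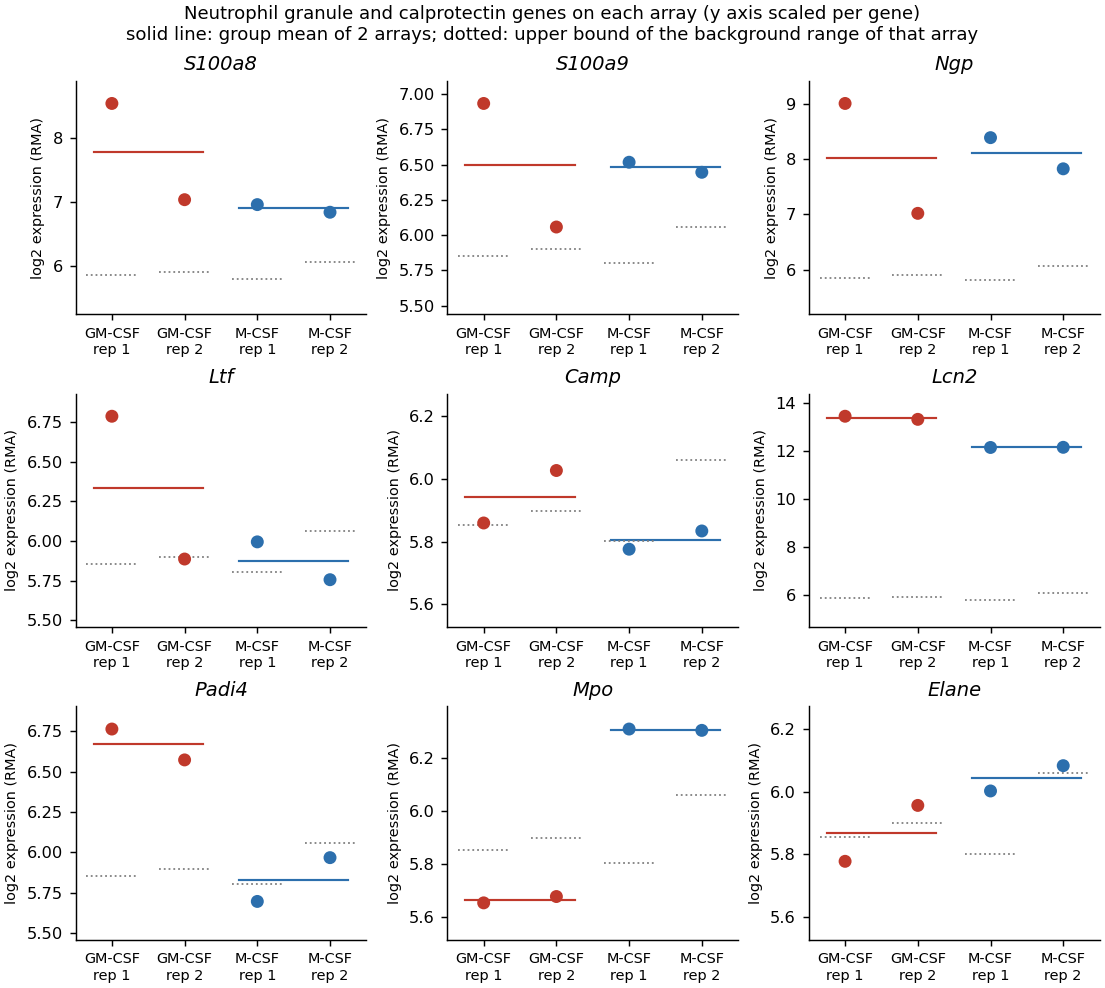
Log2 expression of each of the 9 genes on each array (points; GM-CSF red, M-CSF blue), with the mean of 2 arrays as a solid line and the background bound of that array as a dotted line; the y axis differs between panels. Lcn2, Padi4 and Mpo separated the groups, while S100a8, S100a9, Ngp and Ltf had GM-CSF replicate 1 above the other 3 arrays.

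Of the 9 genes, Lcn2 and Padi4 were higher in GM-CSF cells, Mpo was lower and 6 did not pass the test. Across all genes tested, 6.18% passed limma's test with a higher value in GM-CSF cells and 4.53% with a lower value (adjusted p under 0.05, Benjamini-Hochberg). Both GM-CSF arrays lay above both M-CSF arrays for 4 of the 9 genes and for 26.3% of all genes tested. Both lay below for 2 of the 9 and for 29.2% of all. The median difference of the 9 genes was 0.14 on the log2 scale, beside -0.01 over all genes tested. The calls of Lcn2, Padi4 and Mpo were lost when either M-CSF array was left out. Calls over all genes also fell in those fits, so the loss was not confined to the 9. Without M-CSF replicate 1 the differences of Lcn2, Padi4 and Mpo were 1.23, 0.70 and -0.64. Without M-CSF replicate 2 they were 1.24, 0.97 and -0.64. The GM-CSF pair mattered as well. Set alone against the M-CSF mean, GM-CSF replicate 2 differed by -0.42 for S100a9 and -1.09 for Ngp. GM-CSF replicate 1 alone differed by 0.45 and 0.90. The other genes of the 9, Lcn2, Padi4 and Mpo among them, had the same direction on either GM-CSF array.

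Lcn2, which binds bacterial siderophores and so denies microbes iron, had the largest difference of the 9 genes between groups. It read 13.44 and 13.31 in GM-CSF cells, against 12.14 and 12.14 in M-CSF cells on the log2 scale. The groups did not overlap, and all 4 values lay far above background. The difference was 1.23 ± 0.11 (SE, n = 2 per group), or 2.35-fold, with an adjusted p of 0.00152 in limma's fit across all genes. Of the 14995 genes tested, 349 had a larger difference in the same direction. Without M-CSF replicate 1 or 2 its difference stayed at 1.23 and 1.24, with adjusted p of 0.0521 and 0.0537 from limma. In every other alternative fit at the 0.05 threshold the call held.

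Padi4, the citrullinating enzyme, read 6.76 and 6.57 in GM-CSF cells, against 5.70 and 5.97 in M-CSF cells. Both M-CSF values lay within the background range, so the difference of 0.84 ± 0.14 (SE, n = 2 per group; limma adjusted p = 0.0157) depends on that background. Set against the upper bound of the range in place of the M-CSF values, the GM-CSF mean was at least 1.67-fold higher. The call was lost without M-CSF replicate 1 (0.70, limma adjusted p = 0.175) and without replicate 2 (0.97, limma adjusted p = 0.0994). Of the other deiminase genes, Padi1, Padi2 and Padi3 were tested and did not pass, with differences of -0.04, 0.04 and -0.12. Their means lay just under the background bound in both groups, so these differences carry little information. Padi6 lay within background on all 4 arrays.

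Mpo, which makes hypochlorous acid in primary granules, read 5.65 and 5.68 in GM-CSF cells, against 6.31 and 6.30 in M-CSF cells. The groups did not overlap, and here both GM-CSF values lay within the background range. The difference was -0.64 ± 0.10 (SE, n = 2 per group; limma adjusted p = 0.0132). The M-CSF mean was at least 1.35-fold above the bound of that range in the GM-CSF arrays. The call was lost without M-CSF replicate 1 or 2 (-0.64 each, limma adjusted p = 0.16 and 0.163).

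Elane, a serine protease stored with Mpo, read 5.78 and 5.96 in GM-CSF cells, against 6.00 and 6.08 in M-CSF cells. Both GM-CSF values were below both M-CSF values, yet all 4 lay close to the background bound. The difference of -0.18 did not pass (95% interval -0.46 to 0.11, limma adjusted p = 0.421). Camp, whose product is cut to an antimicrobial peptide, was equally close to background. It read 5.86 and 6.03 in GM-CSF cells, against 5.78 and 5.83 in M-CSF cells, and its difference of 0.14 did not pass (95% interval -0.14 to 0.41, limma adjusted p = 0.53). At such levels these arrays give little information on either gene.

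**Figure D2:**
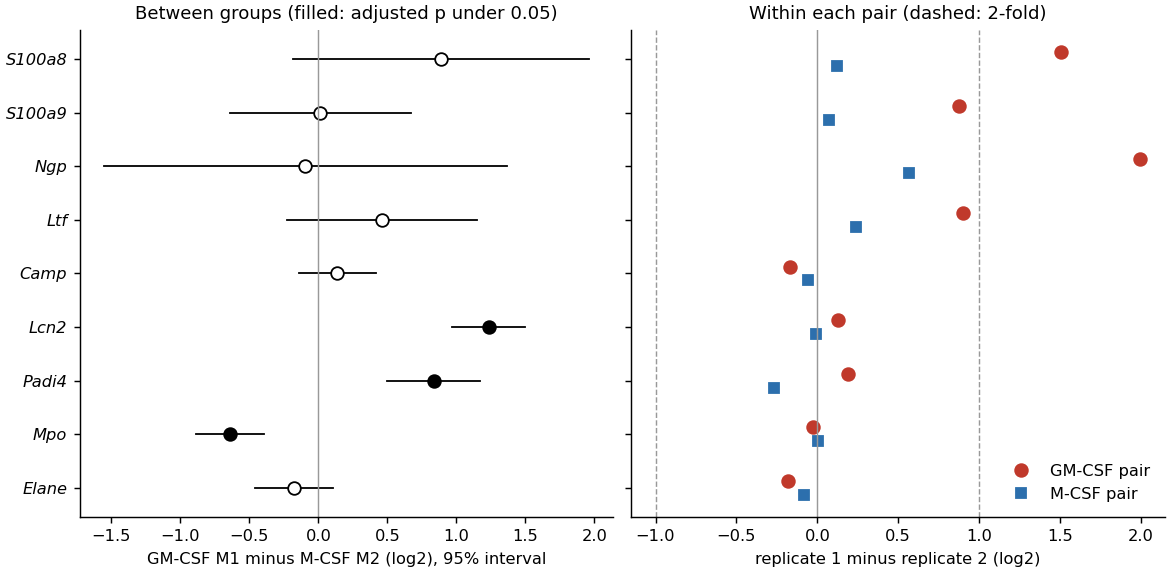
Left, GM-CSF M1 minus M-CSF M2 on the log2 scale with its 95% interval from limma, filled where the adjusted p was under 0.05; right, replicate 1 minus replicate 2 within the GM-CSF pair (red circles) and the M-CSF pair (blue squares), with dashed lines at 2-fold. Ngp and S100a8 were more than 2-fold apart within the GM-CSF pair, and their intervals between groups are the widest of the 9.

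The calprotectin genes and 2 secondary granule genes differed within the GM-CSF pair. S100a8 read 8.54 and 7.04 in GM-CSF replicates 1 and 2, against 6.96 and 6.84 in M-CSF cells. Replicate 1 thus stood alone, with replicate 2 just above the M-CSF arrays. The difference between groups of 0.89 ± 0.44 (SE, n = 2 per group) did not pass (95% interval -0.18 to 1.96, limma adjusted p = 0.279). With GM-CSF replicate 1 left out it was 0.14. With replicate 2 left out it was 1.64 and passed (limma adjusted p = 2.31e-07).

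S100a9, the partner of S100a8, read 6.93 and 6.06 in GM-CSF replicates 1 and 2, against 6.52 and 6.45 in M-CSF cells. The M-CSF values fell between the 2 GM-CSF values, so the groups overlapped. The difference between groups was 0.01 ± 0.27 (95% interval -0.64 to 0.67, limma adjusted p = 0.984). Leaving out GM-CSF replicate 1 gave -0.42 (limma adjusted p = 0.0417) and leaving out replicate 2 gave 0.45 (0.0257), so each GM-CSF array alone gave its own direction. The difference was -0.021 without M-CSF replicate 2 and -0.029 with arrays centred on the genes tested.

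Ngp, a cystatin-like protein of secondary granules, had the widest spread of the 9. It read 9.02 and 7.02 in GM-CSF replicates 1 and 2, against 8.40 and 7.83 in M-CSF cells. The M-CSF arrays again lay between the GM-CSF arrays, and all 4 values were above background. The difference between groups was -0.09 ± 0.60 (95% interval -1.55 to 1.36, limma adjusted p = 0.953). It was -1.09 without GM-CSF replicate 1 (limma adjusted p = 0.000512) and 0.90 without replicate 2 (0.00199), and it turned to 0.19 without M-CSF replicate 1.

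Ltf, the iron-binding protein lactoferrin, read 6.79 and 5.89 in GM-CSF replicates 1 and 2, against 5.99 and 5.76 in M-CSF cells. GM-CSF replicate 1 was clearly above its background bound of 5.85, while GM-CSF replicate 2 and M-CSF replicate 2 were within theirs. The difference of 0.46 ± 0.28 did not pass (95% interval -0.23 to 1.15, limma adjusted p = 0.385). Without GM-CSF replicate 1 it was 0.01, and without replicate 2 it was 0.91 (limma adjusted p = 0.000211). A fit without a GM-CSF array has 1 GM-CSF value per gene and takes its spread from the M-CSF arrays, so these small p-values rest on 1 GM-CSF array.

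Set against each other, GM-CSF replicate 1 was at least 2-fold above replicate 2 for Ngp (3.99-fold, 1.996 on the log2 scale) and S100a8 (2.83-fold, 1.503). These are 2 of the 9 genes, where 0.807% of all genes tested were at least 2-fold higher in replicate 1 and 0.7% at least 2-fold lower. Ltf (0.90, with replicate 2 within background) and S100a9 (0.88) came next. In all, 6 of the 9 were higher in replicate 1, as were 44.0% of all genes tested. There is 1 array on each side, so this contrast has no test. The part in it of the sex difference seen in Xist and Eif2s3y was not tested. With 1 array on each side, sex cannot be told apart from any other difference between them. For scale, 24 genes tested had a larger replicate 1 minus replicate 2 difference than Ngp, 51 a larger one than S100a8, 162 than Ltf and 178 than S100a9. The other 5 genes differed by -0.18 to 0.19 within the GM-CSF pair. In the M-CSF pair 0.0467% of genes tested were at least 2-fold apart, and none of the 9, where Ngp differed by 0.57 and Padi4 by -0.27.

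**Figure D3:**
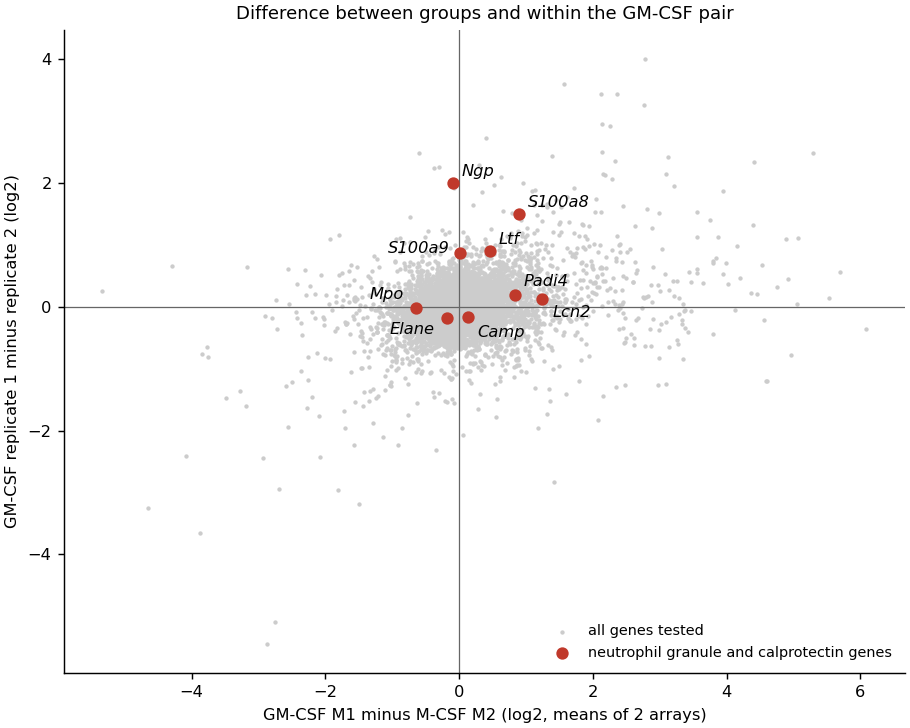
Each point is a gene, with GM-CSF M1 minus M-CSF M2 on the x axis and GM-CSF replicate 1 minus replicate 2 on the y axis, both on the log2 scale; grey points are all 14995 genes tested and red points the 9 genes. Lcn2, Padi4 and Mpo lie off 0 on the x axis and near 0 on the y axis, and Ngp and S100a8 lie high on the y axis.

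The genes whose pattern over the 4 arrays was most like that of each member were found by Euclidean distance between values centred on each gene's mean. For Ngp they were Cd28 (distance 0.27), Serpinb1a (0.30) and F13a1 (0.39). Serpinb1a, an inhibitor of neutrophil serine proteases, read 6.84 and 4.58 in GM-CSF replicates 1 and 2, against 6.23 and 5.79 in M-CSF cells, with replicate 2 of each group within background. F13a1, the coagulation factor XIII subunit of monocytes and macrophages, read 8.92 and 7.27 in GM-CSF cells, against 8.17 and 7.59 in M-CSF cells. For S100a8 they were Cables1 (0.16), Plau (0.21), the urokinase gene, and Raet1d (0.22). For S100a9 they were Dab2 (0.03), St6gal1 (0.06) and Slc22a15 (0.09), and for Ltf L1cam (0.03), Mki67 (0.08), a marker of cycling cells, and Thy1 (0.11). For Lcn2 they were Slc2a1 (0.06), a glucose transporter, Mfsd7a (0.06) and Ccbe1 (0.06). For Padi4 they were Mpzl3 (0.05), Sphk1 (0.05), the sphingosine kinase gene, and Dhrs7 (0.07), and for Mpo Il16 (0.03), a cytokine gene, Gramd1b (0.04) and Ppp3r1 (0.05). With 4 arrays such likeness is a description only.

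The other neutrophil genes were described by where their proteins sit, from lists chosen with earlier results of these data known. Counts for these lists, and for those of later paragraphs, stand beside 6.18% higher and 4.53% lower over all genes tested. Of 10 other primary granule genes, 6 passed the filter on dim genes and 0 passed limma's test, with 2 at an unadjusted p under 0.05. Ctsg, Bpi and Prss57, all genes of primary granule proteins, lay within background on all 4 arrays. Prtn3 read 5.94 and 5.89 in GM-CSF cells, against 5.77 and 5.83 in M-CSF cells, close to background. Cst7, a cystatin of leukocytes, was 3.06-fold higher in GM-CSF replicate 1 than in replicate 2 (1.61 on the log2 scale). Serpinb1a in replicate 2 was within background, and against that array's bound replicate 1 was at least 1.92-fold higher (0.94). Srgn, the granule proteoglycan serglycin, differed there by 0.85.

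Several genes of later granules were higher in GM-CSF cells. Of 15 tested, 8 were higher, 0 lower and 7 did not pass (median difference 0.51), where 6.18% of all genes were higher and 4.53% lower. Mmp8, neutrophil collagenase, read 12.91 and 11.78 in GM-CSF cells, against 8.75 and 8.20 in M-CSF cells, a difference of 3.87 ± 0.37. Hp, the haemoglobin-binding protein haptoglobin, read 10.93 and 11.78 in GM-CSF cells, against 8.16 and 7.87 in M-CSF cells (3.34 ± 0.27). Orm1, an acute-phase glycoprotein, read 8.46 and 8.66 in GM-CSF cells, against 5.81 and 5.50 in M-CSF cells. M-CSF replicate 1 was at the background bound and replicate 2 under it, so the GM-CSF mean of Orm1 was at least 6.17-fold higher (limma adjusted p = 0.000276). Wfdc21 (1.63), Mmp9 (1.00), the gelatinase gene, Cybb (0.51), the NADPH oxidase heme subunit, Chil3 and Lrg1 were the other 5. M-CSF values of Chil3 and Lrg1 lay within background, and set against its bound the GM-CSF means were at least 7.47-fold and 1.52-fold higher. Macrophages are known to make several of these too, such as Chil3, Mmp9 and Cybb. Without M-CSF replicate 1, 4 stayed called (Mmp8, Hp, Wfdc21 and Orm1), and without M-CSF replicate 2, 2 did (Wfdc21 and Orm1).

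Genes of the neutrophil surface and of maturation gave no single direction. Of 15 with a named probe set, 11 were tested, 4 were higher (Mcemp1, Slpi, Ifitm6 and Il1r2), Csf3r was lower and 6 did not pass. Csf3r, the receptor for the neutrophil growth factor G-CSF, read 9.52 and 9.86 in GM-CSF cells, against 10.61 and 10.50 in M-CSF cells (-0.86 ± 0.14, limma adjusted p = 0.0163). Ly6g, the surface marker that defines mouse neutrophils, read 6.18 and 5.45 in GM-CSF cells, against 4.49 and 5.10 in M-CSF cells. Only GM-CSF replicate 1 was above background for it, and its difference of 1.02 ± 0.29 did not pass (limma adjusted p = 0.082). Cxcr2, the chemokine receptor of mature neutrophils, and Retnlg lay within background on all 4 arrays. Within the GM-CSF pair, Pglyrp1 read 7.88 and 6.69 in replicates 1 and 2, a difference of 1.19. Trem3 ran the opposite way, at 8.40 and 9.60 (-1.20). Of the 11 tested, 4 were higher in GM-CSF replicate 1 and 7 were lower. Without M-CSF replicates 1 and 2 in turn, 2 genes of this list stayed called in each fit, while Csf3r did not pass in either (limma adjusted p = 0.198 and 0.162).

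Summed on the linear scale, the 15 surface and maturation genes came to 3559 and 4270 in GM-CSF replicates 1 and 2, against 2891 and 2665 in M-CSF cells. Most of each sum came from the bright genes Csf3r, Trem3, Ifitm6, Mcemp1 and Slpi. Trem3 itself was higher in GM-CSF replicate 2 (9.60) than in replicate 1 (8.40), and Cxcr2 and Retnlg added only background. Above background were 11 and 8 of the 15 in GM-CSF replicates 1 and 2, against 8 and 6 in M-CSF replicates 1 and 2. Of all 14995 genes tested, 11995 and 11991 were above it in GM-CSF replicates 1 and 2, against 12193 and 11212 in M-CSF replicates 1 and 2. The bound was highest, at 6.06, on M-CSF replicate 2. The markers of eosinophils, basophils and mast cells summed to 630 and 418 in GM-CSF replicates 1 and 2, against 454 and 485 in M-CSF cells. Of those 10 markers 5 lay within background on all 4 arrays, among them Mcpt8, Fcer1a and Ms4a2, while 5 and 2 were above it in GM-CSF replicates 1 and 2, against 1 and 2 in M-CSF cells. In GM-CSF replicate 1 alone, Epx (6.12), Prss34 (6.24) and Cpa3 (5.91), genes of eosinophils, basophils and mast cells, were above background. Siglecf of the same list was above background on all 4 arrays, and Prg2 on both GM-CSF arrays and 1 M-CSF array. The part of these other cell types in the values of S100a8, Ngp and Ltf was not tested. In sorted cells measured in bulk, fewer cells of a type and less RNA per cell cannot be told apart.

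**Figure D4:**
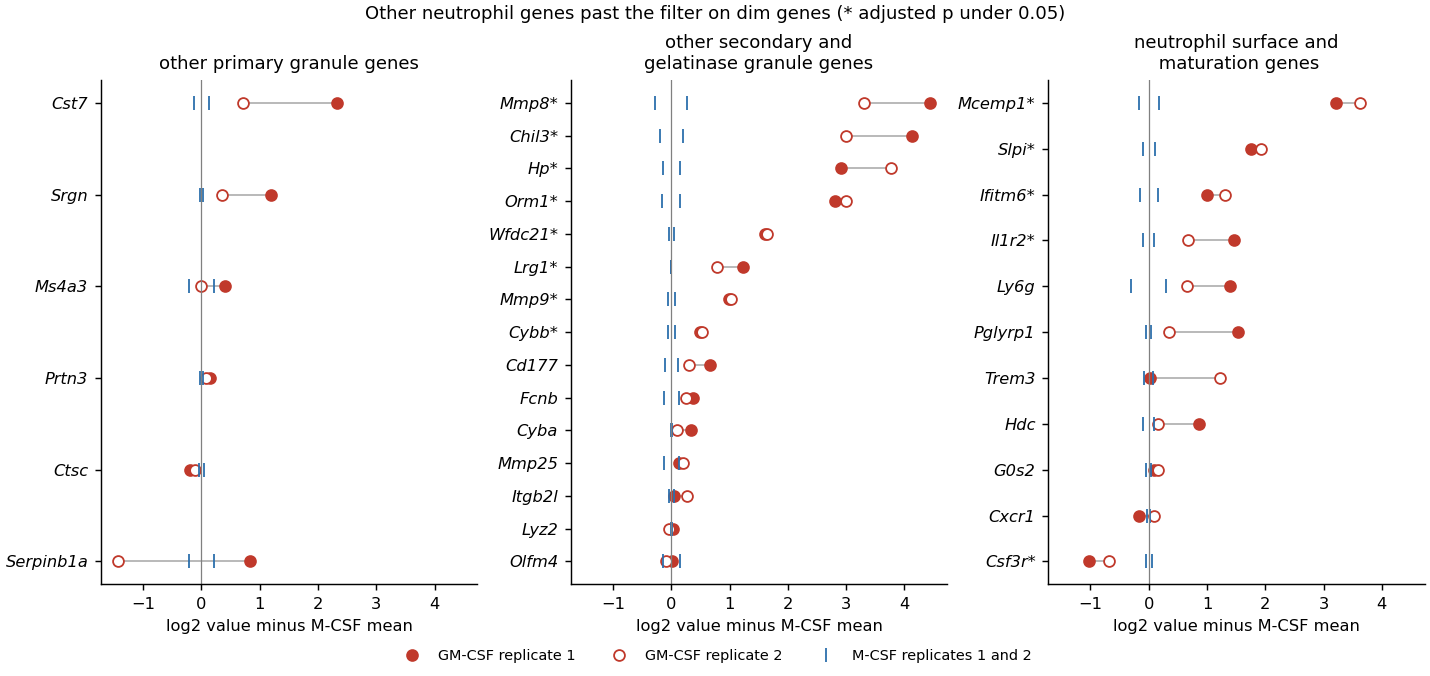
Each row is a gene past the filter on dim genes, with its log2 value in GM-CSF replicates 1 (filled red) and 2 (open red) and M-CSF replicates 1 and 2 (blue ticks) after the M-CSF mean is subtracted; asterisks mark an adjusted p under 0.05 (limma). Mmp8, Chil3, Hp, Orm1 and Mcemp1 lie furthest to the right, and Serpinb1a (within background in GM-CSF replicate 2) and Cst7 have the widest gaps between the GM-CSF arrays.

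Other markers moved with the groups or within the GM-CSF pair. Of 5 monocyte markers tested, 2 were higher in GM-CSF cells. Ccr2, a chemokine receptor, differed by 2.997. Vcan, the proteoglycan versican, lay within background on both M-CSF arrays, and its GM-CSF mean was at least 3.46-fold above that bound. Cx3cr1, a chemokine receptor of monocytes, read 6.94 and 9.77 in GM-CSF replicates 1 and 2, the opposite order to S100a8 and Ngp, against 6.94 and 6.92 in M-CSF cells. The platelet-associated chemokine genes Ppbp (3.75) and Pf4 (1.88) were higher in GM-CSF cells, and both were also at least 2-fold higher in GM-CSF replicate 1 than in replicate 2 (1.41 and 1.15). Vcan, Pf4 and Ppbp lost their calls without either M-CSF array and with trended and robust variances. Of 7 progenitor and cycling markers tested, 1 was higher, the cell cycle kinase gene Cdk6 (0.71), which also lost its call without either M-CSF array. Kit, the receptor of early progenitors, read 6.30 and 5.75 in GM-CSF replicates 1 and 2, against 5.85 and 5.94 in M-CSF cells. Replicate 2 of each group was within background for Kit. Against the bound of GM-CSF replicate 2, GM-CSF replicate 1 was at least 0.40 higher on the log2 scale. Of 7 lymphocyte markers with a named probe set, 6 lay within background on all 4 arrays.

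Of 9 dendritic cell markers tested, 3 were higher in GM-CSF cells, 0 lower and 6 did not pass. Itgax, which encodes the integrin CD11c of dendritic cells and some macrophages, read 10.72 and 10.05 in GM-CSF cells, against 6.01 and 5.71 in M-CSF cells. M-CSF replicate 2 was within background, so its GM-CSF mean was at least 20.4-fold higher (limma adjusted p = 0.000289), a call that held without either M-CSF array. Clec9a, a receptor for dead cells on a class of dendritic cells, read 7.77 and 7.04 in GM-CSF cells, against 5.06 and 4.87 in M-CSF cells, where both were within background (at least 2.77-fold, limma adjusted p = 0.00236). Ccr7, the chemokine receptor of migrating dendritic cells, differed by 1.16 (limma adjusted p = 0.0163). Clec9a did not pass without either M-CSF array, and Ccr7 did not pass without M-CSF replicate 1. Flt3, Xcr1 and Siglech, other dendritic cell genes, were within background on all 4 arrays. The remaining genes that did not pass were not silent throughout. Batf3 was above background on all 4 arrays, Zbtb46 on both GM-CSF arrays and 1 M-CSF array, and Cd209a on GM-CSF replicate 1 alone. The 9 markers summed on the linear scale to 2478 and 1757 in GM-CSF replicates 1 and 2, against 545.5 and 571.5 in M-CSF cells. Most of each GM-CSF sum came from Itgax, and Flt3, Xcr1 and Siglech added only background. The part of dendritic cells in the values of the 9 granule and calprotectin genes was not tested.

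Beside 6.18% of all genes tested, 1 of 13 transcription factors of the granulocyte line was higher in GM-CSF cells. That was Cebpb, at 8.69 and 8.92 in GM-CSF cells, against 8.22 and 8.08 in M-CSF cells (0.65 ± 0.13, limma adjusted p = 0.0259). Cebpe, which drives secondary granule genes, read 7.18 and 7.37 in GM-CSF cells, against 6.75 and 6.87 in M-CSF cells. Its groups did not overlap, and its difference of 0.47 ± 0.12 did not pass (limma adjusted p = 0.0612). Gfi1, which acts with it in granulocytes, read 5.98 and 5.91 in GM-CSF cells, against 5.80 and 5.86 in M-CSF cells, near background. Cebpa (0.30), Cebpd (-0.06) and Spi1 (-0.24), which encodes PU.1, did not pass. Cebpb did not pass when M-CSF replicate 1 or 2 was left out (limma adjusted p = 0.178 and 0.244).

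Among receptors of the secreted proteins, 1 of 9 tested was higher in GM-CSF cells, beside 6.18% of all genes tested. Emb, a surface protein reported to bind calprotectin, read 11.37 and 10.87 in GM-CSF cells, against 9.66 and 9.34 in M-CSF cells (1.62 ± 0.20, limma adjusted p = 0.0055), and did not pass when M-CSF replicate 1 or 2 was left out (0.0711 and 0.108). Tlr4, another calprotectin receptor, read 9.50 and 8.24 in GM-CSF replicates 1 and 2, against 8.51 and 8.28 in M-CSF cells, and did not pass. Its difference of 1.26 within the GM-CSF pair ran the same way as that of S100a8. Ager (0.14) and Slc22a17 (-0.10), receptors for calprotectin and lipocalin 2, did not pass. Fpr1 and Fpr2 had no probe set with a single symbol.

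Of 8 genes that handle iron beside lipocalin 2 and lactoferrin, 2 were higher and 1 lower in GM-CSF cells. Trf, transferrin, read 11.41 and 10.60 in GM-CSF cells, against 9.36 and 9.19 in M-CSF cells (1.73 ± 0.26). Tfrc, the transferrin receptor, read 7.72 and 7.65 in GM-CSF cells, against 8.80 and 8.60 in M-CSF cells (-1.02 ± 0.12). Hamp, the iron hormone hepcidin, read 7.14 and 6.22 in GM-CSF cells, against 3.68 and 5.10 in M-CSF cells, where both were within background, at least 1.68-fold higher against the bound. Slc40a1, the iron exporter ferroportin, read 8.95 and 6.47 in GM-CSF replicates 1 and 2, against 8.45 and 8.17 in M-CSF cells, and did not pass. All 3 calls of this list were lost without either M-CSF array.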

How the data were processed

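RNA (300 ng per sample) was amplified, labelled with biotin and hybridised to 4 arrays, per the labels' protocols. Each deposited value is the log2 expression of a probe set. Per the submitters' processing notes the authors used Affymetrix Expression Console 1.1 and RMA. RMA brings all arrays to a common distribution and compresses differences of dim genes. Detection calls and batches are not given in the sources used here. The number of arrays limits the precision.

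Of 35556 probe sets, 21789 had 1 gene symbol in the platform annotation and 1621 had several, which were not named. A gene was taken by its probe set of highest mean, and was tested where at least 2 of its 4 values exceeded the 30th percentile of all probe sets on the same array. The members' 9 symbols matched a RefSeq table by gene ID.

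Groups were compared across all genes by limma (version 3.58.1, R 4.3.3) with a two-sided moderated test from lmFit and eBayes, whose degrees of freedom were 2 residual and 4.17 prior, and Benjamini-Hochberg adjustment, as GM-CSF M1 minus M-CSF M2. The fit was tested on simulated data. Python 3.11.15, pandas 2.3.3 and matplotlib 3.10.9 searched promoters and drew plots. Members and lists were chosen with earlier results of these data known. The rule for named genes took the 9 members, called genes of the lists, up to 4 genes of each list with the largest difference between groups or within the GM-CSF pair, the 3 nearest patterns of each member above background on at least 1 array (without predicted genes and olfactory or vomeronasal receptors), Xist and Eif2s3y, and the text leaves some out. Other list genes were named after their values were seen, mainly to show levels near background. Same-numbered arrays deviated together only weakly (correlation of 0.06 across genes), and nothing in the labels pairs them.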

Additional observations from a re-analysis of the deposited data

How the results depend on the processing

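The counts for the 9 genes stayed at 2 higher and 1 lower with no filter on dim genes, a filter at the 50th percentile (6 of the 9 tested), quantile normalization, arrays centred on their medians or on those of the genes tested (the last chosen after seeing the data), means of all probe sets, trended and robust variances, array weights and the replicate block. With the replicate block, 966 genes of all were higher and 674 lower, against 926 and 679 without it, and it changed no other call of the 9. At an adjusted p of 0.01 the counts were 1 and 0 of the 9, and 438 and 223 of all genes. Leaving out each array in turn gave 0 to 6 of the 9 higher and 0 to 3 lower, and 168 to 1683 higher and 65 to 1522 lower over all genes. S100a9 ranged from -0.42 to 0.45 with 1 array left out, reversed without GM-CSF replicate 1 and without M-CSF replicate 2, and was -0.029 with arrays centred on the genes tested. Ngp ranged from -1.09 to 0.90 and reversed without GM-CSF replicate 2 and without M-CSF replicate 1. A group left with 1 array borrowed its spread from the other group, and the genes tested were kept. The cause of these changes was not tested. With 2 arrays per group, signal near background limits what can be said of Elane, Camp, Padi4 and Mpo.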
